A study of Mus musculus with 24 samples.

Results

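Hippocampal RNA of mice in which Tsc1 had been deleted was compared between day 13 and day 8 after the start of tamoxifen injection. The comparison rests on 8 of the 24 mice of the series, namely all 4 mice whose sample titles read Cre+ Day13 and all 4 whose titles read Cre+ Day8, and its question is what was newly different after seizures had begun and what had already levelled off. Seizures in this model begin at around day 8. Both groups carried floxed Tsc1 alleles (Tsc1f/f) and the transgene Tg (Camk2a-CreERT2+), and received tamoxifen but no further drug. The 4 Tsc1-Cre- control mice, used here as the background, were littermates with the floxed alleles but without Cre, received tamoxifen as well and were taken on day 8. The animals were adults of both sexes. The Camk2a sequence drives Cre in excitatory forebrain neurons, so that glia, vessels and most interneurons keep Tsc1, and RNA of the whole hippocampus mixes all of them. In such bulk RNA, fewer cells of a type and less RNA per cell cannot be told apart. No control was taken on day 13, and the day 13 mice came from another series of animal numbers than the day 8 mice, so that day and cohort cannot be told apart.

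TSC1 is a part of the complex that holds back the kinase mTORC1, and its loss drives protein, lipid and nucleotide synthesis and enlarges neurons. Seizures are known to switch on immediate early genes such as Fos within minutes, and later neurotrophins and secreted peptides. Repeated seizures are also known to turn astrocytes and microglia reactive, to raise circulating glucocorticoids and to strip dentate granule cells of calbindin.

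Total counts ranged from 53564370 to 59124484 in the day 8 mice and from 38423852 to 126435936 in the day 13 mice. Levels are given as counts scaled to library size (CPM), normalized between libraries with TMM factors, and differences as log2 fold changes of day 13 over day 8 with their standard error (SE). The mice are named A to D within each day, and the same letter on both days names different animals. Tsc1 read 57.4, 59.0, 68.9 and 68.9 CPM in the day 13 mice A to D, 68.2, 76.4, 69.4 and 76.0 in the day 8 mice, and 103 to 109 in the controls. The Tsc1 level was below the controls in all 8 mice, and the day 13 over day 8 difference of -0.20 (SE 0.09) did not pass the test (adjusted p = 0.361). Xist, which is transcribed from the inactive X chromosome of females, read 2.00, 1.53, 810 and 816 CPM in day 13 mice A to D, against 836, 726, 847 and 3.18 in the day 8 mice. Ttr, the defining transcript of choroid plexus, ranged from 13.3 to 349 CPM on day 13 and from 6.51 to 582 on day 8. The neuronal, astrocytic and hippocampal markers that define the tissue were present in every mouse, with Snap25 at 939.7 CPM or more and Prox1, a marker of dentate granule cells, at 75.6 CPM or more.

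Of 24747 genes tested with edgeR's quasi-likelihood test, 0 (0.0%) were called, a call needing an adjusted p below 0.05 together with a log2 fold change beyond 0.5 in either direction, and the smallest adjusted p was 0.231. At an unadjusted p under 0.05 there were 3479 genes (14.1%). With the fold limit added there were 1742 (7.04%), of which 891 (3.6%) were higher and 851 (3.44%) lower on day 13. DESeq2 on the same 8 mice called 243 genes (0.982%), 148 higher (0.598%) and 95 lower (0.384%). On simulated counts with 200 genes changed 2-fold, DESeq2 recovered 123 with 36 false calls, and edgeR 93 with 5. The DESeq2 calls there thus held more false ones than an adjusted p below 0.05 implies, which limits the DESeq2 values given below. edgeR fitted to all 24 mice called 1343 of 27110 genes (4.95%), of which 735 (2.71%) were higher and 608 (2.24%) lower, while limma called 0. By the same edgeR test, 1001 of 25085 genes (3.99%) differed between day 8 and control, 2.15% being higher and 1.84% lower on day 8, and 4101 of 24920 (16.5%) between day 13 and control, 8.4% being higher and 8.06% lower on day 13. These last comparisons share their control mice, and the first shares the day 8 mice, so their counts are given side by side only.

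The spread among the day 13 mice was wide. The median SE of a gene was 0.192 for day 13 against day 8 and 0.14 for day 8 against control. On the first principal component of the 12 mice, which held 39.85% of the variance, the controls lay between -44.1 and -40.7 and the day 8 mice between -22.0 and 20.97. Day 13 mice A and B stood apart at 74.3 and 86.6, while C and D, at 14.8 and 6.63, lay within the range of the day 8 mice. Mice A and B are also the day 13 mice with low Xist, and the part of this in the results was not tested beyond the values among mice with high Xist given below. The levels of the main lists are therefore given mouse by mouse.

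**Figure D1:**
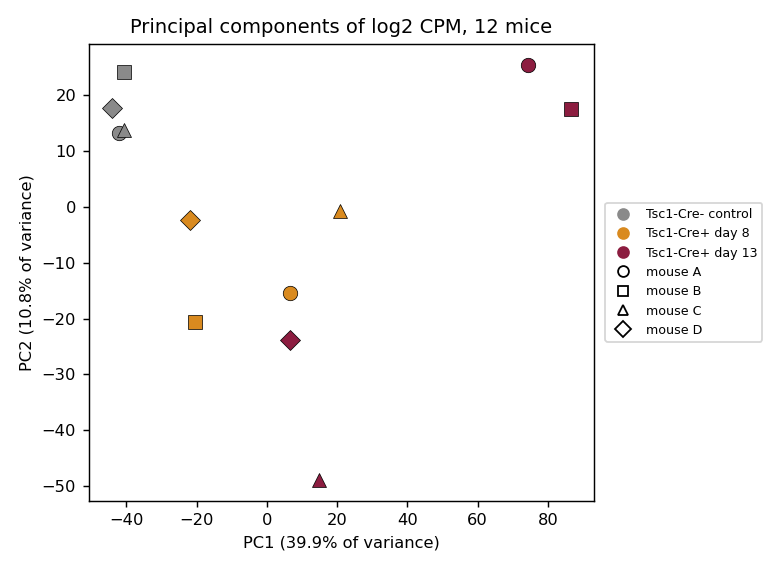
Position of the 12 mice on the first and second principal components of log2 CPM, with the share of variance on each axis label, colors for the group and symbols for the mouse letter. The 4 controls sit together at the left, the 4 day 8 mice spread around the middle, and day 13 mice A and B lie far to the right of day 13 mice C and D.

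Genes known to respond to glucocorticoid hormone were higher on average in all 4 day 13 mice. Of 24 such genes, 23 had a higher estimate on day 13, with a median log2 fold change of 0.72 against -0.0065 over all genes tested. By unadjusted p and fold, 12 of the 24 were higher and 0 lower, beside 3.6% and 3.44% of all genes. DESeq2 called 9 of them higher, beside 0.598% of all genes. The mean log2 level of the list, relative to the day 8 mean, was 0.92, 0.99, 0.61 and 0.61 in day 13 mice A to D and between -0.13 and 0.14 in the day 8 mice. All 4 day 13 mice thus lay above every day 8 mouse, also those that resembled day 8 in the principal components. The median stayed between 0.62 and 0.78 with any 1 mouse left out, and was 0.62 among the mice with high Xist alone (day 8 A, B and C against day 13 C and D), where 11 of 24 were higher by unadjusted p and fold, beside 1.74% of all genes.

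Plin4, a lipid droplet coat protein gene on chromosome 17 (GRCm38, 56100591 to 56109803, minus strand), read 17.3, 17.99, 18.5 and 15.8 CPM on day 8 and 43.6, 69.9, 39.5 and 35.8 on day 13. The lowest day 13 mouse had more than the highest day 8 mouse by a wide margin. The Plin4 log2 fold change of 1.43 (SE 0.18) had the smallest unadjusted p of the named genes (1.82e-05; edgeR adjusted p = 0.231; DESeq2 adjusted p = 2.6e-08).

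Sgk1, the serum and glucocorticoid regulated kinase, on chromosome 10 (21882184 to 21999903, plus strand), read 90.8, 89.9, 79.1 and 78.3 CPM on day 8 and 113, 159, 172 and 172 on day 13. The Sgk1 values of the 2 days did not overlap, and mice C and D were the highest. Its log2 fold change was 0.85 (SE 0.13; edgeR adjusted p = 0.231; DESeq2 adjusted p = 3.55e-05). Nfkbia, the inhibitor that holds NF-kB in the cytoplasm, lay between 10.2 and 13.7 CPM on day 8 and between 17.9 and 24.5 on day 13 (log2 fold change 0.72, SE 0.14). Map3k6, a stress kinase, lay between 0.83 and 2.16 CPM on day 8 and between 2.31 and 5.04 on day 13 (1.41, SE 0.33). Angptl4, a secreted inhibitor of lipoprotein lipase, lay between 0.35 and 0.90 CPM on day 8 and between 1.28 and 4.54 on day 13 (2.00, SE 0.47). None of these had overlapping values between the days. Fkbp5, a chaperone that dampens the glucocorticoid receptor, differed less, with a log2 fold change of 0.38 (SE 0.12), and Tsc22d3 (GILZ) had 0.27 (SE 0.22). Nr3c1, the glucocorticoid receptor itself, was the 1 member with a lower estimate. It read 136 to 150 CPM on day 8 and 93.7 to 125 on day 13 without overlap, a difference of -0.36 (SE 0.11), and is named after its values were seen.

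Mt1 and Mt2, the metallothioneins that bind zinc and copper, belong to the same list. Mt1 read 66.0, 59.0, 89.1 and 65.9 CPM on day 8 and 243, 347, 110 and 119 on day 13 (log2 fold change 1.53, SE 0.34; DESeq2 adjusted p = 0.00151). Mt2 read 2.84, 3.80, 7.39 and 4.97 CPM on day 8 and 43.3, 45.7, 8.32 and 10.7 on day 13 (2.49, SE 0.57; DESeq2 adjusted p = 0.0194). Both were highest in mice A and B, and mice C and D were above every day 8 mouse by a smaller margin. The promoters of these neighboring genes (RefSeq, GRCm38.p6, from 250 bases before to 50 bases after the transcript start, plus strand) are shown because the list's common label is a nuclear receptor, whose palindromic response element and the metal response element can both be looked for there. Capitals mark every match, on either strand, to GNACANNNTGTNC (the glucocorticoid response element) or TGCNCNC (a pattern that includes the core of the metal response element). TGCNCNC is looser than that core, so that a match to it need not be the core. Mt1 lies at chr8:94178839-94179138 and Mt2 at chr8:94172368-94172667.
Mt1: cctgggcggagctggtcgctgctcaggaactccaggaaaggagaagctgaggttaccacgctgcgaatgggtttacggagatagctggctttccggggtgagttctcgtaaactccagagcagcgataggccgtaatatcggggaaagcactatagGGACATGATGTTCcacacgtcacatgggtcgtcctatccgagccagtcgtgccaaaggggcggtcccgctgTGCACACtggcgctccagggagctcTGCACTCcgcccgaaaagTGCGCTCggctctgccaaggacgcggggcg
Mt2: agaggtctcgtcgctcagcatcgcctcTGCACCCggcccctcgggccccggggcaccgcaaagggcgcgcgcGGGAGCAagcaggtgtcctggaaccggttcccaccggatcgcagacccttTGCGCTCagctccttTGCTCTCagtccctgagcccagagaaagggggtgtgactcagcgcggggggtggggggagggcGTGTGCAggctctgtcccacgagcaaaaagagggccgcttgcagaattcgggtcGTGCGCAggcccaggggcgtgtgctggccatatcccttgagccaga
The Mt1 window held 1 match to GNACANNNTGTNC and 3 to TGCNCNC, and the Mt2 window held 0 and 6. TGCNCNC is common, being found in the windows of 53.6% of 27025 genes. GNACANNNTGTNC is rare, at 0.537% of genes, and occurred in 3 of the 20 genes of the glucocorticoid list with a promoter in the table. A match is a description of letters and not a site of binding.

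Immediate early genes, which neurons transcribe within minutes of strong activity, were high in 3 of the 4 day 13 mice. Of 34 such genes, 33 had a higher estimate, with a median of 1.40. By unadjusted p and fold 25 were higher and 0 lower (3.6% and 3.44% of all genes), and DESeq2 called 8 higher (0.598% of all genes). Counted mouse by mouse, 32, 26 and 32 of the 34 were above all 4 day 8 mice in day 13 mice A, B and C. In mouse D the count was 1, while 10 lay below all day 8 mice. For comparison, 29.2, 35.2, 23.6 and 22.9% of all genes were above all day 8 mice in day 13 mice A to D, and 28.9, 29.9, 23.9 and 24.5% below them. The mean log2 level of the list was 1.87, 1.35, 1.84 and -0.29 in these mice, against -0.26 to 0.17 in the day 8 mice. Without mouse D, edgeR called 11 of the 34 genes (57 of 25368 genes in all, 0.225%).

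Fos, one arm of the AP-1 transcription factor, on chromosome 12 (85473890 to 85477273, plus strand), read 6.04, 6.83, 10.7 and 2.85 CPM on day 8 and 102, 51.9, 150.5 and 1.77 on day 13. Mouse D had the lowest Fos level of all 12 mice, since controls ranged from 3.25 to 6.79. The log2 fold change of Fos was 3.52 (SE 0.95; edgeR adjusted p = 0.303; DESeq2 adjusted p = 0.0427). Npas4, an activity-specific transcription factor of neurons, on chromosome 19, read 4.65, 8.97, 2.78 and 5.36 CPM on day 8 and 15.7, 5.98, 67.3 and 4.03 on day 13. Npas4 was high in mice A and C only, and mouse B lay within the day 8 range (2.08, SE 0.81). The promoter windows of Fos (chr12:85473640-85473939, plus strand) and Npas4 (chr19:4989922-4990221, minus strand, printed 5′ to 3′ of the gene) are shown for TGACG, the core of the cAMP response element that CREB binds, with matches on either strand in capitals.
Fos: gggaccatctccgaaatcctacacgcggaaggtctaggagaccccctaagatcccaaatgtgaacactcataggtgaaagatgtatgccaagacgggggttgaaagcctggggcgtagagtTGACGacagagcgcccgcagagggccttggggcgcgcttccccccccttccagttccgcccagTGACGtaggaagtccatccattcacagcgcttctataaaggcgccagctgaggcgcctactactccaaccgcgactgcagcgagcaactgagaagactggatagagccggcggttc
Npas4: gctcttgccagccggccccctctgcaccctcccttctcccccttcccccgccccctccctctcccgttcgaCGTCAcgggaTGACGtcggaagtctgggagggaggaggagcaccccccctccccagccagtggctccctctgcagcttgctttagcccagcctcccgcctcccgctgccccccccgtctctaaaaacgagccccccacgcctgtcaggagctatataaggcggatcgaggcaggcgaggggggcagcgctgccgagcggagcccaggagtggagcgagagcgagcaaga
Each window held 2 matches. TGACG was found in 18 of the 27 immediate early genes with a promoter in the table and in 15 of 26 delayed activity genes, against 6228 of 27025 genes. It also occurred in 9 of 36 reactive astrocyte genes and 8 of 23 sterol synthesis genes.

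Arc, the capsid-like protein of active synapses, read 67.7 to 130 CPM on day 8 and 341, 203, 534 and 57.6 in day 13 mice A to D. Egr2, a zinc finger transcription factor, read 0.43 to 1.28 CPM on day 8 and 19.2, 10.1, 23.1 and 0.41 on day 13, a log2 fold change of 4.21 (SE 0.92; DESeq2 adjusted p = 0.00514). Fosb, a long-lived partner in AP-1, read 1.5 to 6.86 CPM on day 8 and 30.2, 20.03, 56.5 and 1.62 on day 13. Fosb was called by edgeR on all 24 mice (adjusted p = 0.0034), but not on the 8 mice by edgeR (adjusted p = 0.303) or DESeq2 (adjusted p = 0.0609). Homer1, whose short form uncouples synaptic scaffolds, read 641, 612 and 635 CPM in mice A to C and 161 in mouse D, below the day 8 range of 199 to 319. Arc, Egr2, Fosb and Homer1 thus resembled Fos in that mice A to C were above every day 8 mouse, while mouse D was inside the day 8 range for Fosb and below it for Arc, Egr2 and Homer1. Gadd45g, a stress gene of the same list, was the 1 member without overlap. It read 6.88 to 9.75 CPM on day 8 and 38.7, 31.6, 28.0 and 11.9 on day 13 (1.65, SE 0.30; DESeq2 adjusted p = 4.62e-05). Rheb, the GTPase through which the TSC complex acts on mTORC1, is itself counted among activity genes and read 66.6 to 99.5 CPM on day 8 and 147, 165, 148 and 83.7 on day 13 (0.79, SE 0.20; DESeq2 adjusted p = 0.0259).

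A further set of transcripts was high in the same 3 libraries. The summed level of 12 predicted genes on chromosomes 2, 9 and 14 (Gm10800, Gm10801 and 10 others, picked after their values were seen) was 9610, 4090, 9550 and 1.88 CPM in day 13 mice A to D and 1.26 to 19.0 CPM in the day 8 mice. These reads made up 0.893, 0.379 and 0.876% of all counts of mice A, B and C. The controls had at most 64.3 CPM. Their part in the immediate early result was not tested.

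Delayed activity genes and growth factors were high in mice A and B, less so in mouse C and near day 8 in mouse D, with mean log2 levels of 1.52, 1.47, 0.60 and 0.06. Of 37 tested, 26 were higher by unadjusted p and fold (3.6% of all genes) and 0 lower, with a median of 0.86, and 14 had already risen on day 8 against control (2.15% of all genes). Among the mice with high Xist the median was 0.22 with 2 genes higher, and with Xist as a covariate it was 0.59. Bdnf, the neurotrophin, was among these 14. It read 38.9 to 42.3 CPM in the controls, 84.9, 44.6, 131 and 58.9 on day 8 and 154, 224, 137 and 73.5 on day 13 (0.86, SE 0.37). Nptx2, which clusters AMPA receptors, read 39.6, 22.8, 99.6 and 19.9 CPM on day 8 and 228, 406, 140 and 49.7 on day 13 (2.16, SE 0.66). Only day 8 mouse C exceeded the lowest day 13 mouse in Nptx2. Vgf, a granin-like secreted protein, had 75.6 to 144 CPM on day 8 and 325, 364, 157 and 115 on day 13, and Scg2, secretogranin II, had 186 to 469 and then 630, 818, 387 and 330. Gpr3, a constitutively active receptor that raises cAMP, read 2.94 to 4.24 CPM on day 8 and 12.4, 11.3, 9.23 and 3.73 on day 13 (1.29, SE 0.31; DESeq2 adjusted p = 0.00865).

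**Figure D2:**
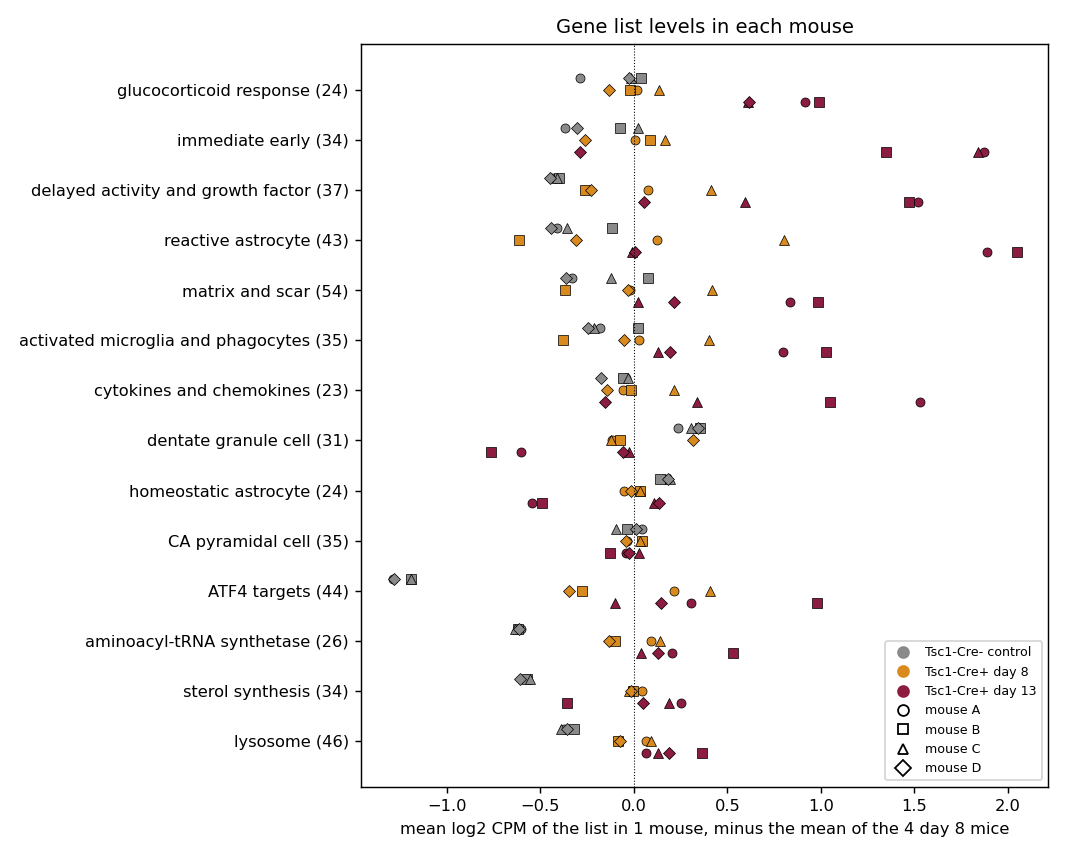
Mean log2 CPM of each gene list in each mouse, relative to the mean of the 4 day 8 mice, with colors for the group and symbols for the mouse letter. The glucocorticoid list lies above day 8 in all 4 day 13 mice, the immediate early list in mice A to C, and the reactive astrocyte list in mice A and B.

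Reactive astrocyte genes were above the day 8 level in day 13 mice A and B, and near the day 8 mean in mice C and D. Of 43 reactive astrocyte genes tested, 20 were higher by unadjusted p and fold and 0 lower (3.6% and 3.44% of all genes), with a median of 1.20. DESeq2 called 1 higher, Thbs1, beside 0.598% of all genes. Fitted to all 24 mice, with a spread taken from all 6 groups, edgeR called 23 higher, beside 2.71% of all genes. The mean log2 level of the list was 1.89 and 2.05 in day 13 mice A and B, -0.011 and 0.0046 in mice C and D, and -0.62 to 0.80 in the day 8 mice. All 4 day 13 mice were above the controls, which lay between -0.44 and -0.12. Of the 43 genes, 31 and 39 lay above all day 8 mice in A and B, and 4 and 5 in C and D, beside 23.6 and 22.9% of all genes in those mice. Among the mice with high Xist alone the list's median was -0.11, with 1 gene higher and 3 lower by unadjusted p and fold, and with Xist as a covariate it was 0.38. Day 13 mice A and B differ from C and D in Xist as well, so that the 2 cannot be told apart.

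Gfap, the intermediate filament of astrocytes, showed that the day 8 mice were themselves split. It read 681, 126, 900 and 158 CPM on day 8 and 751, 1356, 372 and 437 on day 13, with controls at 162 to 209. Day 8 mice A and C had more Gfap than day 13 mice C and D, and the log2 fold change of 0.63 (SE 0.63) was within the spread. Vim, the second filament of reactive astrocytes, read 55.5, 16.9, 92.9 and 22.8 CPM on day 8 and 91.1, 306, 33.6 and 47.1 on day 13 (1.32, SE 0.72). Serpina3n, a secreted protease inhibitor, read 83.3, 31.4, 111 and 32.7 CPM on day 8 and 191, 389, 58.5 and 63.2 on day 13 (1.42, SE 0.63). Against control, Serpina3n had risen on day 8 (1.42, edgeR adjusted p = 0.0247).

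Other reactive genes had their highest levels in day 13 mice A and B, while on day 8 mouse C was above the controls in each of the 4 named here and mouse A in all but Hspb1. Cd44, the hyaluronan receptor of scar-forming astrocytes, read 2.11 to 4.70 CPM in the controls, 13.3, 1.45, 26.0 and 3.40 on day 8 and 118, 151, 5.62 and 5.33 on day 13 (2.65, SE 1.17). Socs3, the feedback inhibitor of STAT3, read 0.99 to 5.74 CPM on day 8 and 98.8, 35.4, 7.47 and 0.99 on day 13 (3.89, SE 1.163). Ptx3, a secreted pentraxin, read 0.19 to 0.37 CPM in the controls, 0.57, 0.14, 5.36 and 0.26 on day 8 and 44.5, 20.5, 0.45 and 0.56 on day 13 (3.38, SE 1.48). Hspb1, a small heat shock protein of stressed astrocytes, read 1.04 to 3.94 CPM on day 8 and 28.5, 29.1, 0.65 and 0.96 on day 13 (2.84, SE 1.08). For Ptx3 and Hspb1, mice C and D lay within or below the day 8 range. Of 24 genes of resting astrocytes, 0 were higher and 1 lower by unadjusted p and fold, with a median of -0.08. The list's mean log2 level was -0.545 and -0.492 in day 13 mice A and B and 0.11 and 0.137 in C and D. On day 8 it lay between -0.052 and 0.0351. In mice A and B, 17 and 17 of the 24 lay below all day 8 mice, beside 28.9 and 29.9% of all genes. In mice C and D, 11 and 14 lay above them, beside 23.6 and 22.9% of all genes. The glutamate transporter gene Slc1a2 differed by 0.01 (SE 0.12) and the water channel gene Aqp4 by -0.01 (SE 0.25). The 1 lower gene was Grm3, a metabotropic glutamate receptor, at 79.9 to 106 CPM on day 8 and 44.4, 30.8, 79.1 and 70.3 on day 13 (-0.72, SE 0.27), without overlap.

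**Figure D3:**
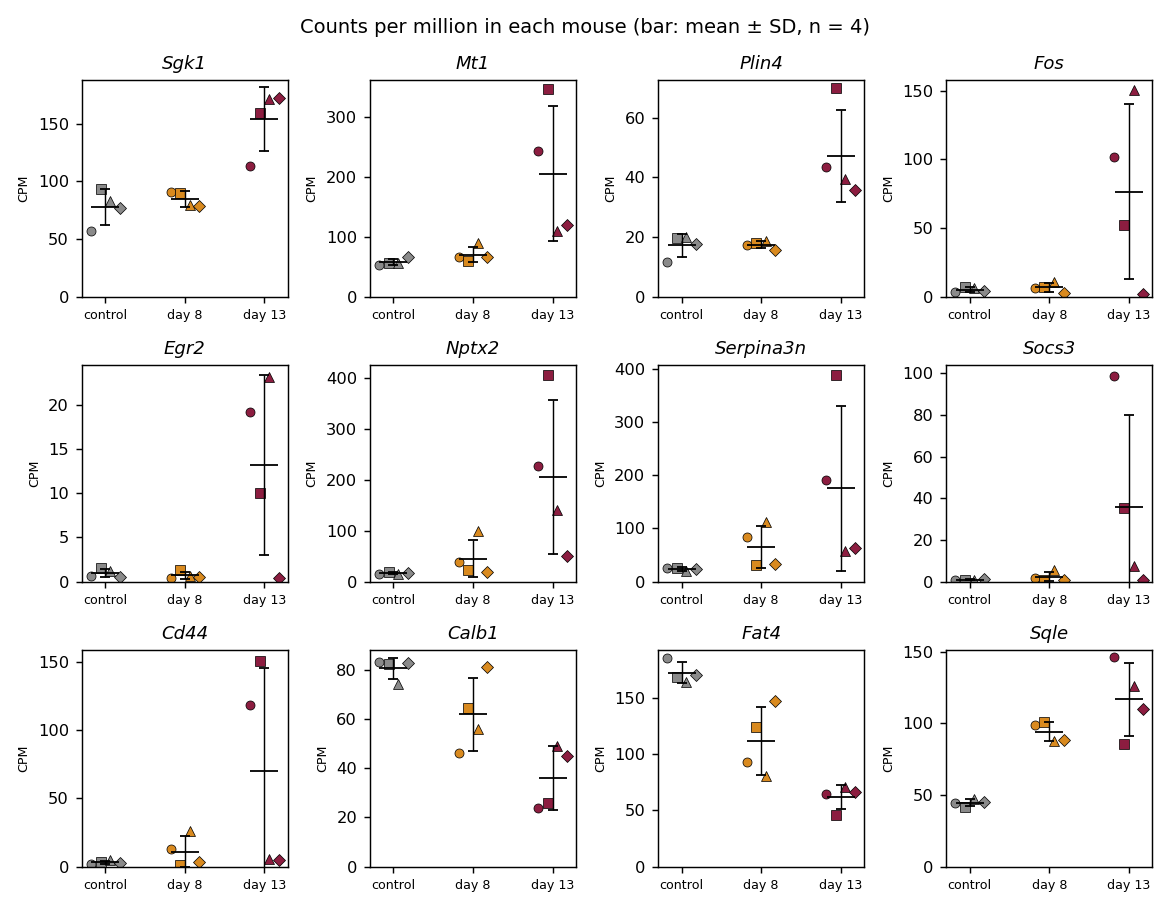
CPM of single genes in each mouse of the control, day 8 and day 13 groups, with bars for the mean and error bars for the SD of 4 mice, cut at 0 where the SD exceeds the mean. Plin4 and Sgk1 do not overlap between day 8 and day 13, Fos is high in day 13 mice A to C, and Cd44 in mice A and B.

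Several cytokine genes were high in mice A and B as well. Lif, a cytokine that acts through STAT3, read 1.012, 0.69, 2.78 and 0.40 CPM on day 8 and 92.0, 31.3, 2.698 and 0.36 on day 13, mice A and B standing far above the rest (4.69, SE 1.36; DESeq2 adjusted p = 0.0416). Clcf1 and Il11, further cytokine genes, read 19.2 and 17.8 CPM and 7.12 and 2.11 CPM in mice A and B, while in mice C and D Clcf1 was at 0.71 and 0.81 and Il11 at 0.11 and 0.18. Il1a, interleukin 1 alpha, was the clearest inflammatory member, with 0.55, 0.28, 0.34 and 0.51 CPM on day 8 and 2.43, 1.36, 1.53 and 0.76 on day 13 without overlap (1.85, SE 0.37; DESeq2 adjusted p = 0.00155). Il1b read 0.20 to 0.50 CPM on day 8 and 1.45, 0.73, 0.45 and 0.56 on day 13 (1.33, SE 0.43). Tnf and Ccl2 were low. Tnf read 0.30 CPM or less on day 8 and 1.25, 0.45, 0.51 and 0.051 on day 13 (2.37, SE 0.92), and Ccl2 read 0.069 to 0.21 CPM on day 8 and 1.78, 0.32, 0.80 and 0 on day 13 (2.62, SE 0.95). Both were higher by unadjusted p and fold, with mouse D inside or below the day 8 range. Of 23 cytokine and chemokine genes tested of 31, 10 were higher and 1 lower (Cxcl12) by unadjusted p and fold (3.6% and 3.44% of all genes), with a median of 0.51. Among the mice with high Xist, 1 was higher and 2 lower, with a median of 0.11.

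Activated microglia and phagocyte genes were higher mainly in mice A and B, with 11 of 35 higher and 0 lower by unadjusted p and fold (3.6% and 3.44% of all genes) and a median of 0.55. The list's mean log2 level was 0.80 and 1.03 in mice A and B and 0.13 and 0.19 in C and D, against -0.38 to 0.40 on day 8. Among the mice with high Xist, 0 of the 35 were higher and the median was 0.14. Fcgr3, a low affinity IgG receptor, read 5.82, 5.46, 7.03 and 5.19 CPM on day 8 and 11.4, 16.5, 8.52 and 7.66 on day 13 (0.90, SE 0.23; DESeq2 adjusted p = 0.021), without overlap. Ch25h, which makes 25-hydroxycholesterol, was also called by DESeq2 (2.29, SE 0.55; adjusted p = 0.0136). Cd68, a phagosomal protein, read 2.60 to 4.24 CPM on day 8 and 6.98, 6.06, 4.09 and 3.40 on day 13, and Spp1, osteopontin, read 1.66 to 6.32 and then 22.2, 29.2, 3.81 and 1.85. Only mice A and B were above day 8 in Cd68 and Spp1. The complement genes C1qa, C1qb and C1qc had log2 fold changes of 0.69 (SE 0.27), 0.84 (SE 0.30) and 0.74 (SE 0.28). Of 15 complement genes, 5 were higher by unadjusted p and fold, beside 3.6% of all genes. Homeostatic microglia genes showed 1 of 18 higher and 0 lower, beside 3.6% and 3.44% of all genes. P2ry12 read 14.9 and 18.5 CPM in day 13 mice A and B, 37.8 and 32.0 in C and D and 26.4 to 29.6 on day 8. Interferon-stimulated genes had 0 of 29 in either direction and a median of 0.04. The interval of 11 of the 29 lay within 0.5 of no difference, beside 37.1% of all genes. Most blood leukocyte genes had few counts, and 6 of 19 could be tested. Ptprc (CD45), which microglia also express, read 5.67 to 9.75 CPM on day 8 and 7.25 to 16.2 on day 13 (0.52, SE 0.26). Trac, a constant gene of the T cell receptor, was the 1 higher by unadjusted p and fold, at 0.21 to 0.26 CPM on day 8 and 0.30 to 0.75 on day 13 without overlap (0.99, SE 0.35). Cd3e was at most 0.13 CPM in any mouse, and S100a8 at most 0.26.

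Matrix and scar genes had 17 of 54 higher and 0 lower by unadjusted p and fold (3.6% and 3.44% of all genes), with a median of 0.51 and mean log2 levels of 0.84, 0.98, 0.02 and 0.21 in mice A to D. The mice with high Xist gave 3 higher and 4 lower, with a median of 0.13. Acan, aggrecan of the perineuronal net, was without overlap at 12.1 to 21.2 CPM on day 8 and 23.4 to 34.1 on day 13 (0.82, SE 0.19; DESeq2 adjusted p = 0.0122). Fn1, fibronectin, read 67.2 to 101 CPM on day 8 and 130.1, 160, 109.9 and 94.0 on day 13 (0.57, SE 0.17). Tnc, tenascin C, read 9.31 to 29.3 CPM on day 8, 97.6 and 118 in day 13 mice A and B, and 7.10 and 8.54 in C and D, below every day 8 mouse. The sign of the Tnc estimate turned from 1.73 to -0.15 with Xist as a covariate.

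Among the neuronal lists, that of dentate granule cells held the most genes that were lower on day 13 by unadjusted p and fold. Of 31 such genes, 6 were lower and 2 higher by unadjusted p and fold (3.44% and 3.6% of all genes), with a median of -0.22. DESeq2 called 1 lower, beside 0.384% of all genes. Against control, 11 were lower and 2 higher on day 13, beside 8.06% and 8.4% of all genes. The list's mean log2 level was -0.60 and -0.76 in mice A and B and -0.03 and -0.06 in C and D, against -0.12 to 0.32 on day 8. Its median was 0.06 among the mice with high Xist. Calb1, calbindin, which mature granule cells hold in quantity, read 74.2 to 83.2 CPM in the controls, 46.0, 64.2, 56.0 and 81.2 on day 8 and 24, 25.7, 49.0 and 45.1 on day 13 (-0.80, SE 0.26). Mice A and B had the lowest Calb1 of all. Ntng1, netrin G1, read 21.9, 28.7, 40.1 and 36.4 CPM on day 8 and 10.9, 11.5, 24.2 and 15.9 on day 13, overlapping through day 13 mouse C and day 8 mouse A (-1.04, SE 0.28; DESeq2 adjusted p = 0.0266). Plk5, a polo-like kinase without mitotic role, had the largest difference of the list. It read 21.1 to 24.5 CPM in the controls, 1.67, 9.59, 1.33 and 15.6 on day 8 and 0.25, 0.18, 2.21 and 1.70 on day 13 (-2.82, SE 1.00). Gabrd, the extrasynaptic GABA-A receptor subunit of granule cells, read 14.8 to 26.7 CPM on day 8 and 9.12, 2.56, 16.5 and 11.7 on day 13 (-1.06, SE 0.46). Prox1, which specifies the granule cell, differed by 0.16 (SE 0.15). The 2 higher genes were Btg2 (1.55, SE 0.69), which is also on the immediate early list, and Kcnip3 (0.64, SE 0.25). C1ql2 read 31.9 to 64.7 CPM on day 8 and 18.9, 17.5, 64.7 and 56.6 in day 13 mice A to D (-0.21, SE 0.43). Dsp read 71.3 to 113 CPM on day 8 and 54.7, 62.9, 51.9 and 119 on day 13 (-0.42, SE 0.26), with mouse D above every day 8 mouse.

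Pan-neuronal genes had narrow intervals. Of 34 pan-neuronal genes, 27 had a 95% interval of the day 13 over day 8 difference within 0.5 on the log2 scale, against 37.1% of all genes, and the median was 0.04. Rbfox3 (NeuN) differed by -0.14 (SE 0.12), Snap25 by -0.04 (SE 0.11) and Camk2a by 0.05 (SE 0.21). Among 35 CA pyramidal cell genes, 3 were higher and 0 lower by unadjusted p and fold (3.6% and 3.44% of all genes). Of the 35, 21 had a negative estimate (median -0.098), and 2 were higher and 2 lower without overlap. DESeq2 called Ociad2 (0.58, SE 0.13, adjusted p = 0.014) and Avpr1b (1.32, SE 0.30, adjusted p = 0.0176) higher. Avpr1b, the vasopressin receptor of CA2, was low, at 0.40 to 0.62 CPM on day 8 and 0.85 to 1.86 on day 13. Htr1a, named after its values were seen, was lower without overlap but short of the fold limit. It read 34.38 to 45.02 CPM on day 8 and 25.23 to 31.52 on day 13 (-0.498, SE 0.11). Fibcd1 read 90.83 to 154.5 CPM on day 8 and 47.48, 39.01, 124.1 and 89.96 on day 13 (-0.64, SE 0.34). The 36 interneuron genes had 1 higher, Crhbp, and 0 lower by unadjusted p and fold (3.6% and 3.44% of all genes). Of the 36, 25 had a negative estimate, with a median of -0.12, and of -0.03 among the mice with high Xist. In day 13 mice A to D, 12, 18, 1 and 10 of the 36 lay below all day 8 mice, beside 28.9, 29.9, 23.9 and 24.5% of all genes. Above all day 8 mice lay 8, 8, 7 and 2. Pvalb differed by -0.0049 (SE 0.17), Sst by -0.03 (SE 0.13) and Gad1 by 0.29 (SE 0.12). Of 24 glutamate receptor genes, 21 had a negative estimate, with a median of -0.27, and 1 was lower by unadjusted p and fold (3.44% of all genes). The mean log2 level of the glutamate receptor list was -0.26, -0.52, -0.05 and -0.17 in day 13 mice A to D and -0.08 to 0.08 on day 8, and its median among the mice with high Xist was -0.066. Gria1 differed by -0.17 (SE 0.12). Of 15 GABA-A receptor genes, 12 had a negative estimate, 1 of which, Gabrd, was lower by unadjusted p and fold. The GABA-A receptor list stood at -0.33, -0.53, 0.07 and -0.03 in day 13 mice A to D and at -0.08 to 0.07 on day 8. The mean levels of both receptor lists were thus below every day 8 mouse in day 13 mice A and B. That of the glutamate receptor list was also below them in mouse D. Of the 24 glutamate receptor genes, 14, 19 and 15 lay below all day 8 mice in mice A, B and D. Of the 15 GABA-A receptor genes, 9, 12 and 3 did so. The shares of all genes below in A, B and D were 28.9, 29.9 and 24.5%. Voltage-gated potassium channel genes had 1 of 45 higher and 0 lower, and sodium, calcium and HCN channel genes 1 of 33 and 0 (3.6% and 3.44% of all genes). Negative estimates were held by 31 of the 45 (median -0.15) and 21 of the 33 (median -0.055). Of the 45, 15, 28, 8 and 19 lay below all day 8 mice in mice A to D, and 14, 9, 6 and 2 above. Of the 33, 11, 18, 8 and 7 lay below and 9, 4, 12 and 1 above. Among all genes 28.9, 29.9, 23.9 and 24.5% lay below, and 29.2, 35.2, 23.6 and 22.9% above. Kcnq3, a subunit of the M-current, read 267 to 419 CPM on day 8 and 226, 161, 374 and 301 on day 13 (-0.44, SE 0.25).

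Peptides that mossy fibers are known to gain after seizures were split within both days. Npy read 32.9, 9.47, 62.7 and 7.30 CPM on day 8 and 81.7, 101, 26.0 and 25.3 on day 13 (1.04, SE 0.69), with controls at 9.69 to 12.1. Penk, proenkephalin, was split likewise, with day 8 mice A and C at 36.8 and 84.7 CPM and B and D at 10.8 and 11.2, against 29.2 to 110 on day 13 (0.80, SE 0.64). Day 8 mice B and D were near the control level of Npy and Penk, and all 4 day 13 mice were above it. Sox11, a transcription factor of immature and injured neurons, read 57.3, 25.8, 81.1 and 25.1 CPM on day 8 and 158, 135, 57.0 and 40.1 on day 13 (1.03, SE 0.49). Dcx, a marker of newborn neurons, read 33.1 to 41.7 CPM on day 8 and 27.6 to 34.3 on day 13 (-0.37, SE 0.11).

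For most genes that had changed by day 8, the data did not decide whether they had levelled off. Of the 1001 genes called on day 8 against control, 983 were tested between day 13 and day 8. The 95% interval of 136 of them (13.8%) lay within 0.5 on the log2 scale, against 37.1% of all genes, and 847 were undecided because their interval crossed that limit. At a margin of 1 the count was 595 (60.5%), and at 0.25 it was 4. A plateau could thus be bounded for a minority of genes at this spread. Esr1, the estrogen receptor gene, had the clearest step and the smallest later difference among the 10 largest day 8 changes. It read 2.60 to 3.96 CPM in the controls, 30.5, 28.1, 32.4 and 27.2 on day 8 and 28.1, 35.7, 37.3 and 39.0 on day 13. Its day 8 over control log2 fold change was 3.22 (edgeR adjusted p = 1.41e-06) and its day 13 over day 8 difference 0.23 (SE 0.11, 95% interval -0.02 to 0.49). The CreERT2 transgene contains a part of an estrogen receptor, and how far its transcripts are counted as Esr1 was not tested.

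ATF4 targets, which supply amino acids and one-carbon units under mTORC1 and stress, were the largest day 8 group. Of 44, 29 had risen on day 8 and 33 on day 13 against control, and 4 were higher on day 13 than on day 8 by unadjusted p and fold, beside 2.15, 8.4 and 3.6% of all genes. The list's mean log2 level was 0.31, 0.98, -0.10 and 0.15 in day 13 mice A to D and -0.35 to 0.41 on day 8, so that mouse B alone exceeded the day 8 range. Mthfd2, of mitochondrial folate metabolism, read 4.37 to 5.16 CPM in the controls, 36.7, 23.9, 37.9 and 22.3 on day 8 and 38.7, 55.9, 29.0 and 32.9 on day 13 (0.36, SE 0.23, 95% interval -0.15 to 0.87). Slc7a3, a carrier of cationic amino acids, read 2.57 to 3.65, then 45.6, 24.6, 55.2 and 22.99, and then 47.1, 93.6, 42.2 and 61.4 (0.70, SE 0.32). Chac1, which cleaves glutathione, differed by 0.56 (SE 0.35), and Trib3, a pseudokinase, by 0.94 (SE 0.58). Sesn2, an amino acid sensor of mTORC1, read 34.9 to 51.0 CPM on day 8 and 51.6 to 94.1 on day 13 (0.51, SE 0.19) and was the 1 target without overlap. Day 13 mouse B was the highest of the 8 mice for Mthfd2, Slc7a3, Chac1, Trib3 and Sesn2. Of the 29, 2 had an interval within 0.5, Mthfd1l and Slc38a2, both named after their values were seen.

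Cyb5r1, a flavoprotein reductase, had 76.3, 39.8, 90.6 and 42.5 CPM on day 8 and 78.7, 151, 64.3 and 106 on day 13 (0.67, SE 0.31). Eif4ebp1, the translation repressor that mTORC1 phosphorylates, had 9.52, 4.89, 13.4 and 4.64 CPM on day 8 and 10.6, 22.4, 4.71 and 7.33 on day 13 (0.46, SE 0.48). Gpnmb, a glycoprotein of stressed lysosomes, had 49.6, 11.4, 94.9 and 23.6 CPM on day 8 and 49.9, 107, 55.5 and 56.2 on day 13 (0.57, SE 0.54). In Cyb5r1, Eif4ebp1 and Gpnmb the day 8 mice A and C were above B and D, and day 13 mouse B was above every day 8 mouse, as was mouse D for Cyb5r1. Arsi, an arylsulfatase, had 8.66 to 11.8 CPM on day 8 and 15.4, 15.4, 15.4 and 10.9 on day 13 (0.52, SE 0.15). The controls, which lack the Cre transgene, read 1.37 to 2.00 CPM of Arsi. Arsi lies on chromosome 18 (60911780 to 60918561), as does Camk2a (60925618 to 60988152), whose sequence drives Cre. The part of the transgene in the Arsi reads was not tested.

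**Figure D4:**
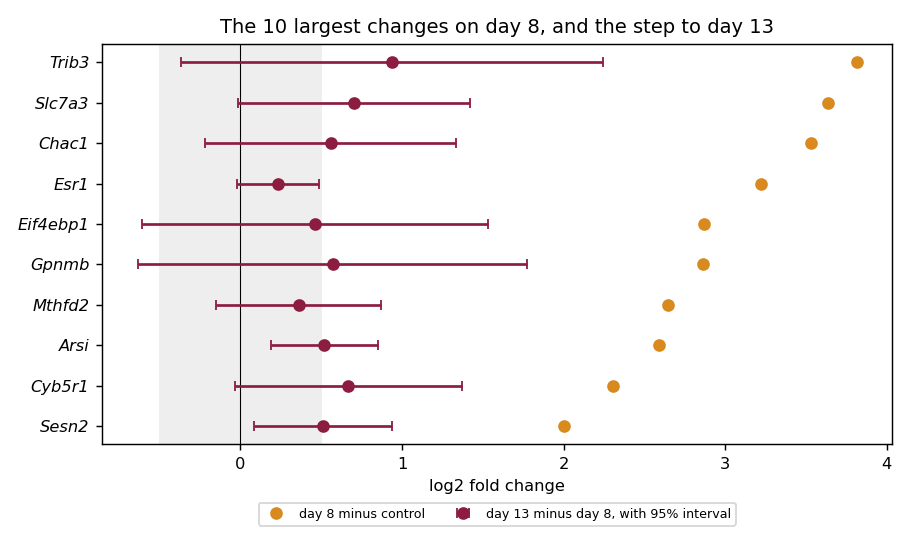
Log2 fold changes of the 10 genes that moved most between control and day 8, as the day 8 over control estimate and as the day 13 over day 8 estimate with its 95% interval, with the range from -0.5 to 0.5 shaded. The day 8 steps lie at 2.00 or more and the later estimates between 0.23 and 0.94.

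Sterol synthesis genes had estimates on both sides of 0. Of 34 genes, 21 had risen on day 8 and 20 on day 13 against control (2.15% and 8.4% of all genes), and by unadjusted p and fold 0 were higher or lower on day 13 than on day 8 (median 0.11). Its mean log2 level was 0.25, -0.36, 0.19 and 0.05 in day 13 mice A to D, mouse B lying below every day 8 mouse, and -0.02 to 0.04 on day 8, against -0.61 to -0.56 in the controls. Sqle, squalene epoxidase, differed by 0.30 (SE 0.15). Of the 21, the interval of 6 lay within 0.5: Acat2, Acly, Dhcr7, Mvk, Sc5d and Stard4, all named after their values were seen. Sc5d, a late enzyme, read 62.8 to 65.8 CPM in the controls, 87.5 to 102 on day 8 and 91.5 to 123 on day 13 (0.16, SE 0.11, 95% interval -0.07 to 0.40).

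Lysosomal genes had narrow intervals. Of 46 tested, 38 had an interval within 0.5, against 37.1% of all genes, with a median of 0.18, while 11 were higher without overlap of the 8 mice, beside 3.62% of all genes. Of the 12 that had risen on day 8, 7 had an interval within 0.5. Lamp1, a membrane glycoprotein, read 143 to 150 CPM in the controls, 159 to 182 on day 8 and 186 to 228 on day 13 (0.22, SE 0.08), and Atp6v0d1, a proton pump subunit, 110 to 119, 150 to 161 and 170 to 198 (0.18, SE 0.07). The values of the 3 groups thus stepped up without overlap in Lamp1 and Atp6v0d1, by little. Ctsd, cathepsin D, differed by 0.42 (SE 0.13). The aminoacyl-tRNA synthetases, which charge tRNAs, had 13 of 26 risen on day 8 and 17 on day 13 against control (2.15% and 8.4% of all genes), with 1 higher on day 13 than on day 8 by unadjusted p and fold, Hars (0.50, SE 0.16), and 14 within 0.5.

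Cell cycle genes leaned the other way. Of 49, 12 were higher than control on day 8 and 15 higher and 3 lower on day 13 (2.15% of all genes, and 8.4% and 8.06%), and 35 had a negative day 13 over day 8 estimate (median -0.16), with 1 higher and 1 lower by unadjusted p and fold. Mki67, present in dividing cells, read 11.0 to 14.7 CPM in the controls, 23.4, 15.3, 24.02 and 18.1 on day 8 and 10.4, 18.3, 14.7 and 15.1 on day 13 (-0.48, SE 0.19). Top2a, the mitotic topoisomerase, read 13.4, 4.74, 11.7 and 3.97 CPM on day 8 and 3.41, 11.6, 4.83 and 4.34 on day 13 (-0.49, SE 0.47). Mcm6, of the replication helicase, was the 1 lower gene and did not overlap, at 11.7 to 17.2 and then 7.81 to 11.6 CPM (-0.57, SE 0.17). Among the mice with high Xist, 7 of the 49 were lower by unadjusted p and fold, beside 1.85% of all genes.

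Myelin and oligodendrocyte genes gave a different pattern. Mobp, a myelin protein gene, read 555 to 958 CPM in the controls, 518, 551, 599 and 592 on day 8 and 937, 645, 825 and 1063 on day 13 (0.61, SE 0.14; DESeq2 adjusted p = 0.0226). Cldn11, the tight junction claudin of myelin, read 64.2 to 82.5 CPM on day 8 and 92.3 to 148 on day 13 (0.66, SE 0.15; DESeq2 adjusted p = 0.0127). Mobp and Cldn11 did not overlap between the days, and day 13 lay in the control range for both or above it. Bcas1, a marker of newly myelinating cells, was called by DESeq2 as well (0.55, SE 0.14; adjusted p = 0.0371). Hapln2, a link protein of the nodes of Ranvier, was the third higher gene and did not overlap, at 14.8 to 16.8 CPM on day 8 and 17.3 to 26.6 on day 13 (0.50, SE 0.14). The major myelin genes differed within the spread, with Mbp at 0.11 (SE 0.16) and Mog at -0.08 (SE 0.37). In all, 3 of 20 myelin genes were higher and 0 lower by unadjusted p and fold (3.6% and 3.44% of all genes). Mean log2 levels of the myelin list were -0.08, -0.32, 0.08 and 0.51 in day 13 mice A to D and -0.05 to 0.06 on day 8. Against control, 4 of 20 myelin and 6 of 21 precursor genes were called lower on day 8, beside 1.84% of all genes. On day 13, 0 and 0 were called lower than control, beside 8.06% of all genes. The median difference from control was -0.34 on day 8 and -0.22 on day 13 for the myelin list, and -0.23 and -0.05 for the precursor list. The SE against control was wider on day 13, as for Mbp (0.11, then 0.19) and Mog (0.14, then 0.38). Fewer calls therefore need not mean a return to the control level. Gpr17, of committed precursors, read 35.2 to 38.6 CPM in the controls, 16.3 to 26.2 on day 8 and 9.99, 12.04, 62.8 and 34.7 on day 13. Its level was therefore lowest in mice A and B and highest in mouse C.

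The endothelial and pericyte list held 1 of the best separated genes. Slc2a1, the glucose transporter of the blood-brain barrier, read 33.7 to 39.9 CPM in the controls, 32.8, 37.7, 39.6 and 33.0 on day 8 and 79.3, 59.6, 61.7 and 51.6 on day 13 (0.81, SE 0.13; edgeR adjusted p = 0.256; DESeq2 adjusted p = 9.38e-05). Slc16a1, a lactate transporter, read 48.9 to 72.6 CPM on day 8 and 108, 115, 86.1 and 72.4 on day 13 (0.72, SE 0.16; DESeq2 adjusted p = 0.0112), with mouse D inside the day 8 range. Of 38 endothelial and pericyte genes 6 were higher and 0 lower by unadjusted p and fold (3.6% and 3.44% of all genes). The cell markers Cldn5 (0.23, SE 0.15), Pecam1 (0.36, SE 0.16) and Pdgfrb (0.04, SE 0.08) differed less. Of the markers of tissue that a dissection may include, choroid plexus genes had 0 of 17 in either direction with a widest 95% half-width of 3.06. Red blood cell genes had 0 of 5, and meningeal genes 0 of 10 higher and 2 lower, Ogn and Slc22a6. The choroid plexus list stood at -0.96, -1.18, -0.04 and 2.18 in day 8 mice A to D, and at 1.22, 0.61, -0.82 and 1.88 on day 13. Among the mice with high Xist its median was 1.97, with 10 genes higher and 0 lower, beside 1.74% and 1.85% of all genes. That comparison thus also differs in choroid plexus content, whose part in it was not tested.

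Heat shock genes were higher in mice A and B, with mean log2 levels of 0.55, 0.64, 0.06 and -0.09 in day 13 mice A to D against -0.16 to 0.21 on day 8. Of 20, 3 were higher and 0 lower by unadjusted p and fold (3.6% and 3.44% of all genes), among them Bag3, a cochaperone, at 3.65 to 6.94 CPM on day 8 and 23.2, 14.6, 8.80 and 4.74 on day 13 (1.37, SE 0.42; DESeq2 adjusted p = 0.046), whereas Hspa1a differed by 0.11 (SE 0.20). The unfolded protein response had 0 of 29 in either direction, with Hspa5 (BiP) at 0.33 (SE 0.21). Genes of p53 and apoptosis had 5 of 30 higher and 0 lower, with mean log2 levels of 0.39, 0.53, 0.06 and 0.13 in day 13 mice A to D and -0.13 to 0.17 on day 8. With the mice of high Xist alone, 0 of the heat shock and 0 of the p53 genes were higher. Cdkn1a, the p21 inhibitor of the cell cycle, read 4.403, 1.66, 5.29 and 1.17 CPM on day 8 and 29.3, 16.9, 3.04 and 4.34 on day 13 (2.09, SE 0.73), again highest in mice A and B. Bax differed by 0.18 (SE 0.10).

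Among genes on none of the lists, those that DESeq2 called with no overlap of the 8 mice included Arl4d, a small GTPase, at 4.44 to 8.78 CPM on day 8 and 41.3, 30.1, 33.8 and 13.8 on day 13 (2.06, SE 0.32; DESeq2 adjusted p = 1.77e-07). Ecel1, a neuronal endopeptidase induced by injury, read 0.51 to 1.39 CPM on day 8 and 2.86, 8.02, 2.98 and 2.03 on day 13 (2.10, SE 0.49). Cfap161 and Slc4a11 had differences of 1.61 (SE 0.36) and 1.71 (SE 0.51), and Ccdc103, whose reads overlap those of Fam187a on the same strand and are therefore uncertain, 1.92 (SE 0.47). In Arl4d, mouse D was again the lowest of the day 13 mice.

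The largest falls that DESeq2 called with no overlap began with Rtl3. Rtl3, a retrotransposon-derived gene of the X chromosome, read 0.99, 2.83, 1.35 and 3.11 CPM on day 8 and 0.22, 0.53, 0.74 and 0.71 on day 13 (-1.97, SE 0.47). Chdh, choline dehydrogenase, had the smallest spread, with 13.6, 12.9, 12.7 and 13.5 CPM on day 8 and 6.29, 6.17, 6.79 and 9.61 on day 13 (-0.88, SE 0.16; DESeq2 adjusted p = 0.000142). Slc25a18, a mitochondrial glutamate carrier of astrocytes, read 34.3 to 37.0 CPM on day 8 and 12.3, 11.9, 26.3 and 24.6 on day 13 (-0.95, SE 0.26; DESeq2 adjusted p = 0.0348). Fat4, an atypical cadherin, read 80.8 to 147 CPM on day 8 and 46.3 to 70.8 on day 13 (-0.86, SE 0.20; DESeq2 adjusted p = 0.0153). The other 6 were Frem3 (-1.17, SE 0.25), Six4 (-1.10, SE 0.26), Fbxw15 (-1.06, SE 0.29), Insm1 (-0.97, SE 0.27), Cbx2 (-0.87, SE 0.23) and Slurp1 (-0.84, SE 0.22). Chdh, Slc25a18, Slurp1, Fbxw15 and Fat4 each overlap a gene on the other strand, and the strand setting of the counting is not given in the sources used here, so their reads cannot be told from those of the partner.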

How the data were processed

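Hippocampal RNA of 24 mice was measured, and the 8 Tsc1-Cre+ mice of day 8 and day 13 were compared, with 4 controls as background. After depletion of rRNA, the authors prepared stranded libraries, trimmed reads with cutadapt 1.16.5, aligned them with STAR 2.7.2b to mm10 and counted them per GENCODE gene with featureCounts 1.6.4, by the methods and the submitters' processing notes, and deposited raw counts without normalization. The strand setting and the treatment of reads that align to several places are not given in the sources used here. Gene names and coordinates came from GENCODE M21 on GRCm38, in which 55144 of 55385 identifiers were found. Promoters were taken from RefSeq (GRCm38.p6).

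Genes with enough counts for the 8 mice were tested with edgeR 4.0.16 (quasi-likelihood, R 4.3.3), with TMM normalization and Benjamini-Hochberg adjustment. Calls needed an adjusted p below 0.05 together with a log2 fold change beyond 0.5 in either direction. "Unadjusted p and fold" stands for an unadjusted p under 0.05 with the same fold. All tests were two-sided. A list's level in a mouse is the mean over its genes of log2 CPM minus the day 8 mean of the gene. No source says more of batches, so p-values measure the spread between these mice. On simulated counts for 24283 genes with 200 changed 2-fold, edgeR recovered 46.5% and made 5 false calls, DESeq2 1.42.0 recovered 61.5% with 36, limma 3.58.1 with voom and quality weights 44% with 5, and edgeR with the replicate block 37% with 5.

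The members and the 38 gene lists (1026 genes, all matched) were chosen with earlier results of these data known. The rule for named genes took the 10 largest rises and falls that the main test called, the anchors of each list and up to 4 further members by unadjusted p and fold, the 10 largest changes on day 8 against control, and Tsc1, Xist and Ttr. As the main test called 0 genes, DESeq2 calls without overlap and with a mean of at least 1 CPM took the first place, a change made after the data were seen. Alternatives were DESeq2, limma, all 24 mice, DESeq2 size factors, other filters, thinned counts, the replicate letter as a block, Xist or Ttr as covariates, other thresholds and each mouse left out. The comparison of mice with high Xist was added after the data were seen. The letters do not pair the mice: the correlation of deviations of same-letter mice was 0.03, -0.29, -0.28 and 0.20. With 4 mice a side, an exact permutation test of a single value cannot give a p under 0.0286, and was not used. The sex of each mouse was not used beyond Xist.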

Additional observations from a re-analysis of the deposited data

Results flagged for a closer look

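In 11 of 144 groups of 4 mice examined, 1 mouse stood apart from the others by Dixon's criterion for 4 values, which chance alone meets in about 1 of 20 groups. On day 8, mouse D had a dentate granule cell list level of 0.316 above the day 8 mean, an Xist level of 3.18 CPM and a Ttr level of 582 CPM, and its Slurp1 level was 2.40 CPM. Day 8 mouse C had 2.66 CPM of Cfap161. On day 13, mouse B had a cell cycle list level of 0.322 and an endothelial and pericyte list level of 0.357 relative to day 8, 8.02 CPM of Ecel1, 107 CPM of Gpnmb and 94.1 CPM of Sesn2. Day 13 mouse D had 10.9 CPM of Arsi, against 15.4 in the other mice of that day. Mouse B is also the most deeply sequenced of the 8 mice, with 126435936 counts.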

How the results depend on the processing

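The number of genes called between day 13 and day 8 was 0 by edgeR, limma, with DESeq2 size factors, without or with another filter on low counts, on thinned counts, with Xist or Ttr as a covariate, with no fold minimum or one of 1, and among the mice with high Xist. It was 243 (148 higher, 95 lower) by DESeq2 and 1343 (735 and 608) by edgeR on all 24 mice, whose fit takes its spread from all 6 groups. On the simulated counts DESeq2 made 36 false calls beside 123 recovered genes, and edgeR 5 beside 93. How many of the 243 are false was not tested. Leaving out 1 mouse gave 0 to 57 genes, 0 to 54 higher and 0 to 3 lower, and the 57 came without day 13 mouse D, while Sgk1 without day 13 mouse A and Plin4 without day 13 mouse B were single calls. With the replicate block, which pairs mice by letter only, 0 genes were called and 112 day 8 genes had an interval within 0.5, beside 136 without it. That second count was 4 at a margin of 0.25, 595 at a margin of 1, 241 on all 24 mice, and 69 (without day 8 mouse A) to 178 (without day 8 mouse D) with 1 mouse left out.

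Over 215 named genes, 3835 alternative values kept direction and side of the threshold, 146 passed it, 71 moved by more than the spread and 30 turned in sign. The log2 fold change of Xist turned to 1.602 with Ttr as a covariate, Tnc to -0.15 with Xist as a covariate, and Lum to 0.066 by limma. With 1 mouse left out, Lgals3 ranged from -0.0057 (without day 13 mouse B) to 1.43, and Gpr17 from -0.12 (without day 13 mouse C) to 0.83. Among the mice with high Xist, 25 turned. Reactive genes and cytokines were Gfap (-0.48), Vim (-0.44), Serpina3n (-0.30), Ptx3 (-1.97), Clcf1 (-0.77), Hspb1 (-1.45), Spp1 (-0.36), Lgals3 (-0.057), Msr1 (-0.80), Il11 (-0.65), Ccl12 (-0.35), Tnc (-1.27), Timp1 (-0.74) and Cd44 (-1.30). The others were Tnfrsf12a (-0.33), Npy (-0.44), Penk (-0.19), Sox11 (-0.16), Neurod1 (0.046), Cdkn1a (-0.024), Phlda3 (-0.071), Hcn3 (-0.00062), Trib3 (-0.092), Chac1 (-0.18) and Xist (0.023). That comparison has 3 mice against 2, and the cause was not tested. For genes of under 1 CPM, such as Tnf, small differences were below what these counts can resolve.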
